A study of Homo sapiens with 9 samples.

Results

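The genes described are 10 that encode proteins secreted by liver and yolk sac, AFP, TTR, ALB, APOA1, APOA2, APOB, APOC3, APOE, FGB and SERPINA1, out of 19735 genes measured. They were taken as every probe set whose platform annotation names a single one of these genes, which gave 24 of the 54675 probe sets on the array. A gene is described by its main probe set, the one whose mean over all 9 arrays is highest. The arrays come from 3 established human embryonic stem cell (hESC) lines, Shef3, H14 and Shef1, with 1 array per line in each of 3 groups. The hESC group held undifferentiated cells at day 0, grown on inactivated mouse embryonic fibroblast feeders with serum replacement and basic FGF. The DFNB group was plated on laminin and stayed 14 days in the medium DFNB, which is DMEM and F12 with the N2 and B27 supplements. The FGF3+10 group had the same 14 days in DFNB with FGF3 and FGF10 added at 50 ng/ml each, a protocol meant to direct hESCs towards otic progenitors, the founder cells of the inner ear. The labels do not say whether feeder cells were removed before RNA was taken. Of 9 pluripotency genes, 8 or 9 reached a level of 4 on each hESC array and 5 to 8 on each day 14 array. Each array is 1 culture of 1 line, so the spread within a group is the spread between lines.

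The members belong to the set of plasma proteins that hepatocytes and, earlier in development, the visceral endoderm of the yolk sac make in bulk. Their genes share control by endoderm transcription factors of the HNF, FOXA, GATA and C/EBP families. Apolipoproteins carry lipid in the blood, AFP and ALB are related carriers of which AFP prevails before birth, TTR carries thyroid hormone and retinol-binding protein, FGB is a chain of the clotting protein fibrinogen, and SERPINA1 is an inhibitor of neutrophil elastase. Several are also made elsewhere: TTR in the choroid plexus and the retinal pigment epithelium, and APOE in macrophages and astroglia.

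The start regions of these genes are shown because the members are textbook targets of those endoderm factors and their levels mostly correlated across the arrays. Among the 13391 genes compared with each member, few of them members, the closest lay outside the 10. The set of RefSeq (GRCh38.p14) start regions used here covered 6 of the 10, AFP, ALB, APOA2, APOE, FGB and SERPINA1. The 250 bases before a start of 5 of them are printed 5′ to 3′ in the direction of the gene. Capitals mark GTTAAT, one arm of the palindromic HNF1 motif, or its reverse complement ATTAAC, and also TATAAA in AFP and GTAAACA, the reverse complement of the FOXA core TGTTTAC, in APOA2.
AFP (chr4:73435971-73436220, plus strand): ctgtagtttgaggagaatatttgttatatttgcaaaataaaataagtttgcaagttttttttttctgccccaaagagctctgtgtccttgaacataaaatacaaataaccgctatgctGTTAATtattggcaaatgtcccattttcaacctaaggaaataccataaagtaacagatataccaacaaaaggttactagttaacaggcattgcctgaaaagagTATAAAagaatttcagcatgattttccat
ALB (chr4:73404037-73404286, plus strand): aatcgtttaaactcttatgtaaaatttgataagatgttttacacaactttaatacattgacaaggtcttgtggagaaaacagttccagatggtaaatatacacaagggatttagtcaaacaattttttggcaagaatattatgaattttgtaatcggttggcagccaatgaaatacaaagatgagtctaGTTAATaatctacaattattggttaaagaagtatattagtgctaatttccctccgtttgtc
FGB (chr4:154562730-154562979, plus strand): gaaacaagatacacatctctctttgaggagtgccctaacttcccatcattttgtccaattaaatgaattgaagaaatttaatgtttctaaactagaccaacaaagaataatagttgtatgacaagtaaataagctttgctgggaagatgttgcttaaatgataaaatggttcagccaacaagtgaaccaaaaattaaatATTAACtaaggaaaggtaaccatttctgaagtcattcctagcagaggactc
SERPINA1 (chr14:94388603-94388852, minus strand): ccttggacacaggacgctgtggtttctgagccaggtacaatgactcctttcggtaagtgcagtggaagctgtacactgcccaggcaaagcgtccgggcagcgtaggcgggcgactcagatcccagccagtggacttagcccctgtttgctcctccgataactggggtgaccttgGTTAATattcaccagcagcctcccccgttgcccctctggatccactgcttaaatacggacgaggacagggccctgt
APOA2 (chr1:161223629-161223878, minus strand): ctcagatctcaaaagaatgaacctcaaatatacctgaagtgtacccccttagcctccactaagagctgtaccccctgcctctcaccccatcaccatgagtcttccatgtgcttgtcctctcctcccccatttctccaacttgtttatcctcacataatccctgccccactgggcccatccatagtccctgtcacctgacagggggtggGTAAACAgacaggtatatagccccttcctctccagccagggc
Searched on both strands, the HNF1 arm stood before at least 1 listed start of 4 of the 6 genes, against 7.5% of the 27305 genes in the table. Counted by start region, it was in 5 of the 10 regions of these genes and in 6.23% of all 35116. It lay 132 bases before the start of AFP, 61 before that of ALB, 51 before the FGB start shown and 76 before the second listed start of SERPINA1. The listed FGB regions overlap, and the same match, 82 bases before the other FGB start, was counted in both. By region, the FOXA core was found in 1 of the 10 (2.98% of all regions), TATAAA in 1 (10.7%) and the HNF4 core CAAAGTCCA in 0 (0.325%). In the printed windows no match overlapped a match of another motif. These letters are matches only, and no binding was measured.

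All 10 genes averaged lower after 14 days than in hESC, in both media and in each of the 3 lines. Levels are the deposited log-scale values, taken here as log2, and a change is a difference between them in log2 units. The median member change was -2.82 from hESC to DFNB and -3.38 from hESC to FGF3+10, against -0.19 and -0.19 over all genes. A gene lower in all 3 lines made up 25.9% of the genes measured for DFNB and 24.6% for FGF3+10. At least 3 units lower on average were 5 of the 10 members in DFNB (1.28% of all genes) and 6 of the 10 in FGF3+10 (1.04%). The members were chosen with earlier results of these data known, so these shares describe them and test nothing. On each array 57.7% to 60.3% of all genes stood at or above a level of 4, used here as a floor. Of the 10 members 10, 9 and 7 did so in hESC of Shef3, H14 and Shef1, then 10, 5 and 4 in DFNB and 6, 6 and 3 in FGF3+10. With values below 4 set to 4, only APOA1, APOA2 and APOB averaged at least 3 units lower, in both media. The median member change was then -1.70 in DFNB and -2.41 in FGF3+10. In such bulk samples, fewer cells of a type and less RNA per cell cannot be told apart.

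**Figure D1:**
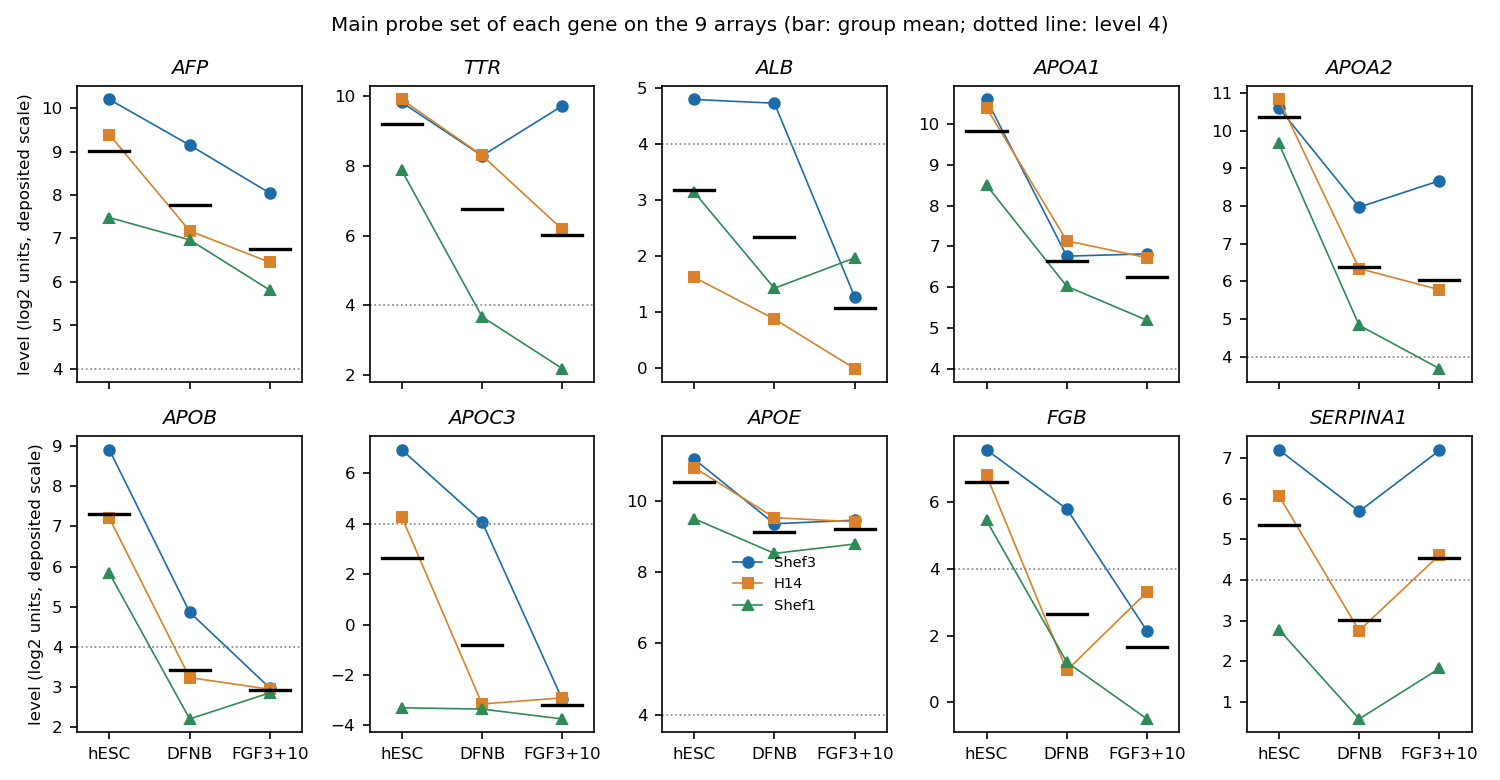
Level of the main probe set (log2 units, vertical axis, a scale of its own per panel) of each of the 10 genes in hESC, DFNB and FGF3+10. Points joined by lines are the cell lines, bars are group means of 3 arrays and the dotted line is level 4. The 3 hESC points of APOA1, APOA2 and APOB lie above all their day 14 points, and Shef1 is the lowest line in most panels.

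APOA1, the main protein of high-density lipoprotein, stood at 10.60, 10.40 and 8.50 in hESC of Shef3, H14 and Shef1. In DFNB the same lines gave 6.76, 7.13 and 6.02, and in FGF3+10 6.82, 6.72 and 5.19. Every hESC array was therefore above every day 14 array. The change was -3.20 ± 0.67 (SE, n = 3 and 3 arrays) in DFNB and -3.59 ± 0.67 in FGF3+10, with limma adjusted p-values of 0.0902 and 0.0906 in the fit without cell line. With the line as a block the gene was called lower in both media (limma adjusted p = 0.0233 and 0.0258). Its main probe set is of a type that can share probes with other sequences.

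APOA2, the second protein of high-density lipoprotein, went from 10.60, 10.82 and 9.66 in hESC to 7.97, 6.34 and 4.84 in DFNB. With FGF3 and FGF10 the levels were 8.67, 5.78 and 3.69. The groups did not overlap, and the FGF3+10 change ran from -1.93 in Shef3 to -5.97 in Shef1. Its changes of -3.98 ± 1.21 (SE, n = 3 and 3 arrays) and -4.31 ± 1.21 did not pass (limma adjusted p = 0.186 and 0.208; 0.0614 and 0.0683 with the line block).

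APOB, the structural protein of very-low- and low-density lipoprotein, measured 8.91, 7.21 and 5.83 in hESC. It measured 4.86, 3.24 and 2.21 in DFNB and 2.97, 2.95 and 2.86 in FGF3+10. Here too the groups did not overlap, and the 3 lines, which spanned 3.08 units between Shef3 and Shef1 in hESC, lay within 0.12 units of each other in FGF3+10. The mean there was 2.93 ± 0.06 (SD, n = 3), a level below 4. Its changes were -3.88 ± 0.84 (SE, n = 3 and 3 arrays) in DFNB and -4.39 ± 0.84 in FGF3+10 (limma adjusted p = 0.0990 and 0.0921), and was called lower in both with the line block (0.0448 and 0.0442).

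APOC3, an inhibitor of lipoprotein lipase, was above 4 on 3 arrays only. The hESC levels were 6.93 in Shef3, 4.26 in H14 and -3.30 in Shef1, a spread of 5.31 (SD, n = 3). DFNB arrays gave 4.07, -3.15 and -3.35, and FGF3+10 arrays -2.97, -2.91 and -3.74. Shef1 was thus below the floor in every group, and at day 14 Shef3 in DFNB was the one array above it. Neither change passed (-3.44 ± 2.70 and -5.84 ± 2.70 SE, n = 3 and 3 arrays; limma adjusted p = 0.560 and 0.439), and with values below 4 set to 4 they were -1.04 and -1.06.

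APOE, the ligand of lipoprotein remnant receptors, stayed well above 8 on all arrays. It read 11.16, 10.92 and 9.49 in hESC, 9.35, 9.52 and 8.52 in DFNB and 9.45, 9.41 and 8.78 in FGF3+10. The shift of -1.40 ± 0.50 (SE, n = 3 and 3 arrays) in DFNB overlapped hESC through Shef1, whereas that of -1.31 ± 0.50 in FGF3+10 did not overlap. Neither passed (limma adjusted p = 0.247 and 0.341; 0.0772 and 0.113 with the line block).

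AFP, the fetal serum carrier and a marker of yolk sac endoderm, measured 10.20, 9.39 and 7.48 in hESC of Shef3, H14 and Shef1. It measured 9.15, 7.17 and 6.97 in DFNB and 8.04, 6.45 and 5.81 in FGF3+10. All 9 values exceeded 5, and the groups overlapped since Shef3 at day 14 was above Shef1 at day 0. Its changes were -1.26 ± 0.89 (SE, n = 3 and 3 arrays) and -2.26 ± 0.89 (limma adjusted p = 0.518 and 0.358; 0.136 and 0.0665 with the line block). The order hESC, DFNB, FGF3+10 from high to low held in every line.

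TTR, the carrier of thyroid hormone, differed most between lines at day 14 in FGF3+10. In Shef3 it stood at 9.83 in hESC, 8.29 in DFNB and 9.73 in FGF3+10. H14 gave 9.91, 8.30 and 6.18, and Shef1 7.87, 3.67 and 2.18. The day 14 spread was accordingly wide, 2.67 in DFNB and 3.78 in FGF3+10 (SD, n = 3), and the changes of -2.45 ± 1.90 and -3.17 ± 1.90 (SE, n = 3 and 3 arrays) did not pass (limma adjusted p = 0.555 and 0.550). TTR in FGF3+10 was 7.55 units lower in Shef1 than in Shef3, against 1.96 units in hESC.

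ALB, the main carrier of adult plasma, reached 4 on 2 arrays, with 4.80 in hESC Shef3 and 4.73 in DFNB Shef3. Its other 7 values lay between -0.01 and 3.14. The changes of -0.84 ± 1.13 and -2.11 ± 1.13 (SE, n = 3 and 3 arrays) did not pass (limma adjusted p = 0.748 and 0.498), and they were -0.02 and -0.27 once values below 4 were set to 4.

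FGB, the fibrinogen beta chain, gave 7.57, 6.80 and 5.45 in hESC, 5.80, 0.96 and 1.21 in DFNB and 2.14, 3.31 and -0.50 in FGF3+10. Only Shef3 in DFNB stayed above 4 at day 14. The FGF3+10 arrays did not overlap hESC, and those of DFNB did, through Shef3. Its changes were -3.95 ± 1.41 and -4.96 ± 1.41 (SE, n = 3 and 3 arrays; limma adjusted p = 0.245 and 0.214), while values floored at 4 gave -2.01 and -2.61.

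SERPINA1 followed the line more than the group. Shef3 stood at 7.20, 5.69 and 7.19 in hESC, DFNB and FGF3+10, H14 at 6.08, 2.76 and 4.62, and Shef1 at 2.78, 0.58 and 1.83. On this main probe set the 3 lines kept this order in every group, with Shef1 below 4 throughout, and the groups overlapped. The changes from hESC were -2.34 ± 1.74 in DFNB and -0.81 ± 1.74 in FGF3+10 (SE, n = 3 and 3 arrays; limma adjusted p = 0.539 and 0.890). With the line block the SE was 0.39, with limma adjusted p-values of 0.0533 and 0.349. With the floor of 4 the changes were -1.20 and -0.49. A further SERPINA1 probe set, at or above 4 on 2 arrays only, did not keep the order of lines at day 14. It put H14 lowest, at 2.46 in DFNB and 2.91 in FGF3+10, beside 2.83 and 3.21 in Shef1.

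Fitted over the whole table, limma called 0 of the 10 members between DFNB and hESC in the fit without cell line, where 0.203% of genes were called. It called 0 of 10 between FGF3+10 and hESC, where 0.177% were called. At an unadjusted p below 0.05 there were 5 of 10 lower in DFNB (9.7% of all genes) and 6 of 10 in FGF3+10 (7.49%). With the cell line as replicate block, which pairs the arrays of a line, 2 of 10 were called lower in each, APOA1 and APOB, beside 0.958% and 0.583% of all genes called in either direction. Lower on all 3 day 14 arrays than on any hESC array were 3 members in DFNB, APOA1, APOA2 and APOB (14.4% of all genes). In FGF3+10 it was 5, these and APOE and FGB (11.3%). Both comparisons use the same 3 hESC arrays, so the values are set side by side and not as independent results. By line (Shef3, H14, Shef1) the median change was -1.79, -3.29 and -2.34 for DFNB, and -2.84, -3.59 and -2.32 for FGF3+10.

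**Figure D2:**
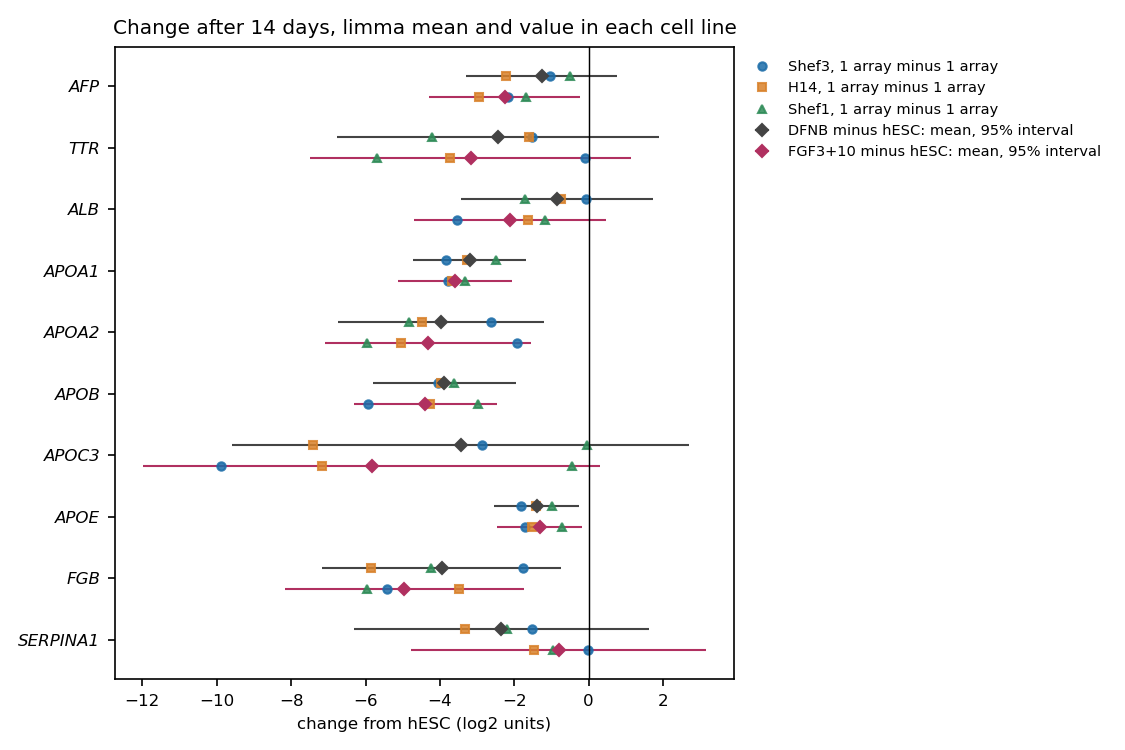
Change from hESC (log2 units, horizontal axis) of the 10 genes after 14 days in DFNB (dark) or FGF3+10 (red). Diamonds are means over 3 lines with the 95% interval of the limma fit without cell line, and the other points are the 3 lines. All points lie below 0, the intervals of APOA1, APOA2, APOB, APOE and FGB do not reach 0 in either medium (that of AFP in FGF3+10 does not either), and APOC3 has the widest interval.

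Between the 2 media no member differed by the test. Limma called 0 of the 10, with and without the line block, and 0% of all genes were called in either fit. At an unadjusted p below 0.05 it was 0 of 10 members in the fit without cell line, beside 1.52% of all genes. With the line block it was 2 of 10, beside 2.71% of all genes. The sign was the same in all 3 lines for 2 members (21.8% of all genes), AFP and SERPINA1. AFP differed with FGF3 and FGF10 by -1.11 in Shef3, -0.73 in H14 and -1.16 in Shef1, below DFNB each time. SERPINA1 was higher by between 1.24 in Shef1 and 1.86 in H14, a mean of 1.53 ± 1.74 (SE, n = 3 and 3 arrays), or ± 0.39 with the line block. The other 8 went both ways. The 95% intervals of the difference ran from -1.06 to 1.22 for APOE, from -1.92 to 1.13 for APOA1, from -3.03 to 1.03 for AFP, from -2.43 to 5.50 for SERPINA1 and from -8.54 to 3.75 for APOC3, so these arrays do not show that the media act alike. In Shef3 FGF3+10 minus DFNB was -3.66 for FGB, -3.46 for ALB and -7.04 for APOC3, and H14 gave 2.35, -0.89 and 0.24 for the same genes. TTR was 1.43 higher in Shef3 and differed by -2.12 in H14 and -1.49 in Shef1.

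Levels also went with the cell line. In a model of group and line, the moderated F test of limma called SERPINA1 (F = 82.6, adjusted p = 0.0198), which was 1 of 10 members beside 0.486% of all genes. At an unadjusted p below 0.05 it was 9 of 10, all but FGB, beside 20.3% of all genes. SERPINA1 averaged 6.69 ± 0.87 in Shef3, 4.48 ± 1.66 in H14 and 1.73 ± 1.10 in Shef1 (SD, n = 3 arrays of different groups). AFP averaged 9.13 ± 1.08, 7.67 ± 1.53 and 6.75 ± 0.86 (adjusted p = 0.0715 by the limma F test), and TTR 9.28 ± 0.86, 8.13 ± 1.87 and 4.57 ± 2.95 (0.118). Shef1 was the lowest line for 9 of 10 members in hESC, 8 of 10 in DFNB and 9 of 10 in FGF3+10. Over all genes Shef1 was the lowest line for 51%, 39.8% and 35.8%. ALB, lowest in H14 in every group, and FGB, lowest in H14 in DFNB, were the exceptions. The poly-A control probe sets, which read added bacterial RNA, averaged 7.21 to 7.28 on the Shef1 arrays, 4.72 to 5.43 on Shef3 and 4.99 to 5.16 on H14, and their part in the line differences was not tested. The call of SERPINA1 was lost without any 1 of 7 of the 9 arrays, with limma adjusted p-values from 0.0509 to 0.136, and held without hESC Shef3 (0.0310) or hESC H14 (0.0328). The call was also lost with values below 4 set to 4 (adjusted p = 0.0544 by the limma F test).

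The further probe sets of 8 members mostly had changes of the same sign. Counting the main probe sets, which all averaged lower, 20 of the 24 averaged lower than hESC in DFNB and 20 in FGF3+10. Among the 17 that reached 4 on at least 1 array, again with all main probe sets included, it was 16 and 16. The exception was a SERPINA1 probe set with changes of 0.93 and 1.40, whose hESC levels were 4.02, 1.73 and 0.29. The other SERPINA1 probe set that reached 4 gave -2.34 and -0.76. The second FGB probe set gave -5.98 and -7.04, with 8.87, 7.55 and 6.14 in hESC and 1.26, 2.48 and -2.29 in FGF3+10. That of APOA2 gave -4.98 and -5.57, and that of APOA1 -3.82 and -5.13, both larger than on the main probe set. The 3 probe sets of APOE gave -1.05 to -1.40 in DFNB and -0.95 to -1.31 in FGF3+10, with a correlation of at least 0.99 with the main one over the 9 arrays. The 3 further ALB probe sets stayed below 4 throughout and gave changes between -1.10 and 0.85.

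**Figure D3:**
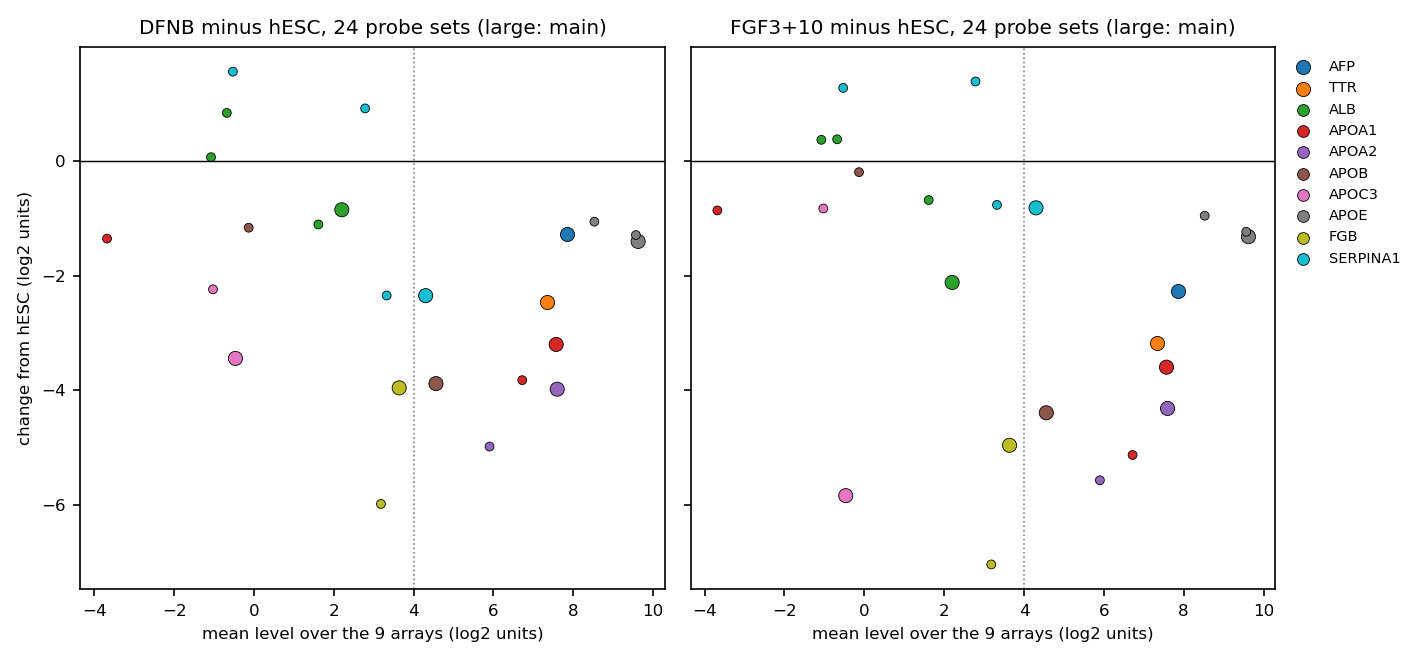
Change from hESC (log2 units, vertical axis) of the 24 probe sets against their mean level over the 9 arrays (log2 units, horizontal axis), for DFNB on the left and FGF3+10 on the right. Colours are genes, large points are main probe sets and the dotted line is level 4. Of the 24 points, 20 lie below 0 in each panel, and 3 of the 4 above it never reached level 4 on any array.

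Other plasma proteins of the liver and yolk sac were also mostly lower. Of 23 measured, 0 passed in limma in either medium, and 21 averaged lower in DFNB and 21 in FGF3+10. At an unadjusted limma p below 0.05, 9 were lower in DFNB (9.7% of all genes) and 9 in FGF3+10 (7.49%). The median change of the 23 was -1.65 and -1.32, against -0.19 and -0.19 over all genes. Level 4 was reached by 11, 11 and 8 of the 23 in hESC of Shef3, H14 and Shef1. In DFNB 8, 3 and 4 reached it, and in FGF3+10 2, 3 and 4, so many of these changes include values below the floor. FGA and FGG, the other fibrinogen chains, whose genes lie next to FGB on chromosome 4, had changes of -3.74 ± 1.27 and -5.44 ± 2.07 in DFNB (SE, n = 3 and 3 arrays; limma adjusted p = 0.232 and 0.269). In FGF3+10 their changes were -4.95 ± 1.27 and -7.71 ± 2.07 (0.176 and 0.191). FGG stood at 8.26, 6.80 and 3.76 in hESC and, like FGB, was above 4 at day 14 in Shef3 in DFNB alone, at 6.14. PLRG1, the gene on the other side of FGB, stayed between 8.74 and 10.02. With the line block FGA and RBP4, the retinol carrier that binds TTR, were called lower in FGF3+10 (limma adjusted p = 0.0442 and 0.0481), and F10, clotting factor X, in DFNB (0.0448). With values below 4 set to 4 the changes of FGA were -1.82 and -2.08, those of FGG -1.64 and -2.35, that of RBP4 in FGF3+10 -1.48 and that of F10 in DFNB -0.84.

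Neighbouring genes of the members were read from the RefSeq gene order, and those described next were chosen after their values were seen. APOA4, in the cluster with APOA1 and APOC3 on chromosome 11, stood at 7.03, 4.94 and 2.77 in hESC, 1.35, 1.72 and 3.12 in DFNB and 0.84, 1.20 and -0.87 in FGF3+10. It was thus lower than in hESC in all lines with the FGFs and in 2 of 3 lines in DFNB, while SIK3 beside the cluster stayed between 7.05 and 8.09. APOC1, next to APOE on chromosome 19, stood at 9.89, 9.89 and 8.73 in hESC, 4.37, 4.97 and 7.37 in DFNB and 3.26, 6.12 and 6.95 in FGF3+10. Its change was -3.94 ± 1.05 in DFNB (SE, n = 3 and 3 arrays; limma adjusted p = 0.152), beside -1.40 for APOE, and Shef1 had the highest APOC1 at day 14. AFM, next to AFP, was below 1 on all arrays.

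Genes that regulate these loci or handle lipoproteins were measured as well. Of 16 regulators of hepatic and visceral endoderm 0 passed in limma in either medium, and the median change was -0.77 and -0.99. At an unadjusted limma p below 0.05, 7 were lower in DFNB (9.7% of all genes) and 6 in FGF3+10 (7.49%). In each medium 1 was higher, and the share of all genes that were higher was not counted. FOXA2 averaged 6.31 ± 0.34 (SD, n = 3) in hESC, 0.54 ± 3.47 in DFNB and 1.57 ± 0.37 in FGF3+10, with no overlap (limma adjusted p = 0.129 and 0.228). With values below 4 set to 4 it was called lower in both media (-2.31 and -2.31; limma adjusted p = 0.00635 and 0.0077), as was SOX17, another endoderm factor (-2.47 and -2.66; 0.0427 and 0.0444). GATA4, an endoderm and heart factor, went from 7.40, 6.58 and 4.98 in hESC to 4.23, 2.96 and 2.86 in DFNB, and was called lower in both media with the line block (limma adjusted p = 0.0465 and 0.0497). HHEX was called lower in DFNB with the block (0.0383). PROX1, a factor of liver, lens and neural progenitors, was higher at day 14, from 1.26 ± 0.65 in hESC to 5.72 ± 1.36 and 6.30 ± 1.21 (SD, n = 3), and was called higher in both with the block (limma adjusted p = 0.0257 and 0.0276). With the floor its changes were 1.72 and 2.30 and were not called (0.260 and 0.209 without the block). Of 17 lipoprotein assembly and uptake genes 0 passed, with a median of 0.08 and -0.27. The 2 with the largest change were ABCG1, a sterol exporter, at 3.58 ± 0.83 and 3.55 ± 0.83, and CUBN, an uptake receptor, at 3.34 ± 1.25 and 1.21 ± 1.25 (SE, n = 3 and 3 arrays; limma adjusted p from 0.112 to 0.737). Much of both lay below level 4, since the floor gave 1.21 and 1.18 for ABCG1 and 0.20 and 0.19 for CUBN. MTTP, which loads lipid onto APOB and was chosen after its values were seen, had changes of -2.56 and -2.85 (limma adjusted p of 0.0533 and 0.0538 with the line block), and -0.91 and -0.91 with the floor.

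**Figure D4:**
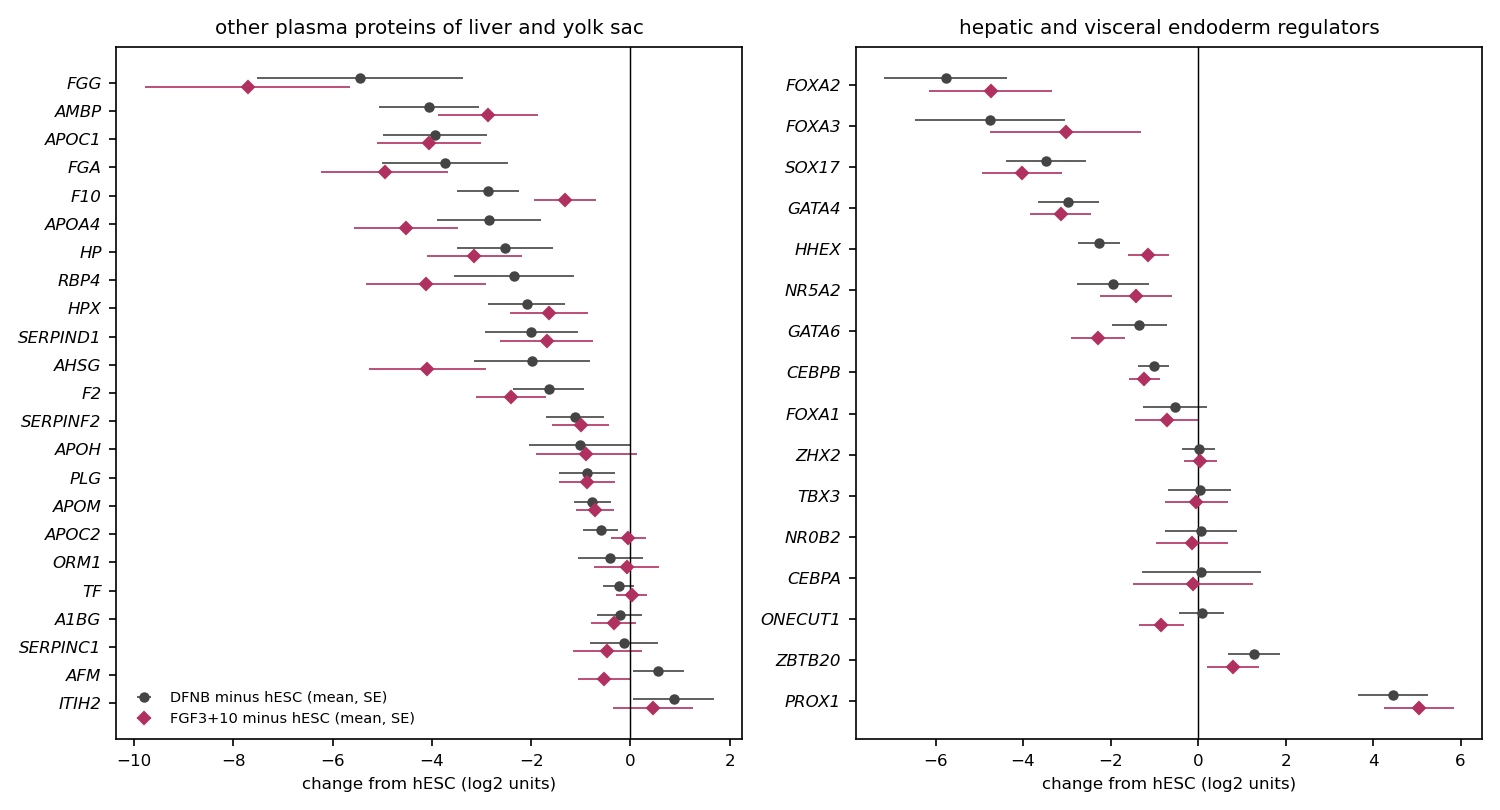
Mean change from hESC (log2 units, horizontal axis) with its SE in DFNB (circles) and FGF3+10 (diamonds), n = 3 arrays per group, for 23 other plasma proteins on the left and 16 endoderm regulators on the right. Of the plasma proteins 21 lie below 0 in each medium, and PROX1 lies farthest to the right among the regulators.

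Markers of cell types that make these proteins were read beside the members, and their part in the changes was not tested. Of 12 hepatocyte enzymes 3 to 5 reached level 4 on each array, so the members were not accompanied by most enzymes of mature liver. Their median change was -0.32 and -0.35, and HPD and PCK1, which had the largest changes, stayed below 4 on all arrays. Gut genes had a median of -0.21 and -0.54 over 8 genes, with VIL1, a brush border protein, at -2.49 and -1.83 and FABP1, a fatty acid binder of liver and gut, at -3.51 and -4.07. Choroid plexus genes, relevant to TTR, had a median of 0.46 and -0.09 over 15 genes, with KCNJ13 at 2.16 and 2.83 and STEAP1 at -2.26 and -1.62. Pigment epithelium genes had a median of 0.21 and 0.38 over 10 genes, with TYRP1 at 2.88 and 3.31 and BEST1 at -1.47 and -1.34. For APOE, astroglial genes had a median of -0.36 and -0.37 over 10 genes (S100B 2.69 and 2.01, SPARCL1 2.20 and 2.44) and macrophage genes of -0.07 and -0.13 over 9 (AIF1 -1.83 and -1.95, LYZ -2.15 and -2.15), with at most 1 macrophage gene at or above 4 on an array. AIF1 and BEST1 stayed below 4 on all arrays, FABP1 reached 4 only in hESC of Shef3 and H14, and LYZ only in hESC. Values below 4 also enter the changes of VIL1, KCNJ13, STEAP1, TYRP1, S100B and SPARCL1. Mesenchyme genes, 10 of 10 above 4 on every array, had a median of 0.74 and -0.22 (DCN 2.89 and 1.44, POSTN 1.88 and 0.77). Pluripotency genes had a median of -3.05 and -2.38 over 9 genes, with NANOG at -8.75 ± 5.58 and -7.60 ± 5.58 (SE, n = 3 and 3 arrays) and PRDM14 at -7.50 and -5.51. The NANOG means rest on Shef3, where the changes were -21.3 and -18.7, against -3.88 and -2.49 in H14 and -1.10 and -1.59 in Shef1. PRDM14 likewise gave -15.0 and -13.4 in Shef3, -5.21 and -1.76 in H14 and -2.32 and -1.37 in Shef1. In Shef3 at day 14 the levels were -10.2 and -7.62 for NANOG and -5.75 and -4.18 for PRDM14. These lie far below level 4, so much of the Shef3 changes lay under the floor. None of the genes in these 8 lists passed in the limma fit without cell line. With the line block LYZ was called lower in DFNB (limma adjusted p = 0.0448). With the floor VIL1 (0.0262 and 0.0341) and DPPA2, a pluripotency gene (0.0327 and 0.0441), were called lower in both media.

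The members mostly correlated with each other across the 9 arrays, which share groups and lines. Over the 45 pairs Pearson's r ran from 0.29 for TTR and ALB to 0.95 for APOA1 and APOE, with a median of 0.77. Among 13391 other genes that reached 4 on at least 1 array, the closest to APOB were CEBPB (r = 0.97), a C/EBP factor, GATA4 (0.96) and CHURC1 (0.96). Closest to FGB were GATA6-AS1 (0.97), FGG (0.96) and TMEM200B (0.95), and closest to APOC3 were FABP1 (0.97), FOXRED2 (0.93) and LGI2 (0.93). APOE lay nearest to ALAS1 (0.99), EFCAB14 (0.98) and CCDC91 (0.97), and APOA1 to HAX1 (0.98), NDUFAF5 (0.98) and ARSL (0.97). For APOA2 the nearest were TMEM200B (0.96), TBXA2R (0.96) and MGST2 (0.96), for AFP LAMC3 (0.96), SYT2 (0.96) and VLDLR (0.96), and for TTR ITM2C (0.97), EPHX1 (0.96) and CHRM3 (0.96). For ALB they were FKBP11 (0.96), WIF1 (0.93) and C7orf57 (0.92), and for SERPINA1 GNAS-AS1 (0.94), ODAM (0.92) and TMED4 (0.91). The other members were among the genes compared, and no member was among the 3 closest to another. Members were few among the 13391 genes, so this does not tell whether they are closer to each other than other genes are. The range over the 45 pairs was not set beside that of pairs of other genes. These correlations describe 9 arrays and carry no test.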

How the data were processed

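Total RNA from 9 cultures was amplified by a 3' method and labelled with biotin, per the labels' protocols. The authors deposited normalised log-scale values, read here as log2, and all 9 arrays have a median of 3.20. No source used here gives the software, the background correction or the base of the logarithm. Values ran from -14.4 to 13.3. Of 54675 probe sets, 41091 had a single gene in the platform annotation. Symbols were updated through RefSeq, and 54 probe sets without a match were left out. Some list members are not analysed here.

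Group means over all 9 arrays were fitted in R 4.3.3 with limma 3.58.1 (lmFit, eBayes), adjusted by Benjamini-Hochberg over 19735 genes and called below 0.05. The same lines occur in every group. The shared line pairs them, and deviations of a line's arrays correlated at 0.0864 to 0.714. Fits with the line as replicate block stand beside the results they bear on. In the fit without the line, p-values measure the spread between lines, with 1 culture per line. With the block, they measure how far the changes differ between lines. The fit without the line was tested on simulated data that held no line effects, which does not cover the block fit. The members and 11 gene lists were chosen with earlier results of these data known. Named list genes are up to 4 called members of a list in the fit without the line or else the 2 with the largest change from hESC. Further list genes are named because they were called with the block or the floor, or were chosen after their values were seen. Likeness was sought for members that reach 4 and span 2 units, as the 3 highest correlations. No read depth exists for arrays, and their number limits the precision.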

Additional observations from a re-analysis of the deposited data

How the results depend on the processing

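Without the cell line no member was called between day 14 and hESC. With the line as replicate block 2 were called in DFNB and 2 in FGF3+10, with array weights 2 and 2 (their estimation stopped before it converged), and with a trend in the prior variance 1 and 1. With the block and values below 4 set to 4, chosen after seeing the data, 4 and 4 were called. The other alternatives called 0 of the members, among them quantile normalisation, only the 6 arrays compared and each fit without a line or an array. Between the media all alternatives called 0. Over all genes the calls of 40 in DFNB and 35 in FGF3+10 became 189 and 115 with the block, 1627 and 292 with array weights, 154 and 78 with the trend, 184 and 124 with the floor, 422 and 227 with block and floor, 122 and 66 among genes with a mean of at least 4, 26 and 15 with only the 6 arrays, and 0 to 71 with arrays or lines left out. Quantile normalisation moved the median of all genes from -0.19 to -0.08 in DFNB and from -0.19 to -0.06 in FGF3+10, and that of the members to -2.63 and -3.20.

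The median member change moved to -1.70 in DFNB and -2.41 in FGF3+10 with the floor of 4 (with and without the block), and to -2.73 in FGF3+10 with the mean of probe sets. With single arrays or lines left out it ran from -3.75 (without hESC Shef1) to -1.65 (without DFNB Shef1) in DFNB, and from -4.15 (without FGF3+10 Shef3) to -2.81 (without FGF3+10 Shef1) in FGF3+10. ALB turned to 0.55 in DFNB with array weights. SERPINA1 turned to 0.28 in FGF3+10 with the mean of probe sets and ran from -2.13 to 0.55 with arrays left out. The cause was not tested.

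Between the media the median of -0.62 became -0.43 with the mean of probe sets, -0.24 with the floor (with and without the block), -0.40 over the 7 members with a mean of at least 4 and -1.08 with array weights, and ran from -1.31 (without FGF3+10 Shef3) to 0.12 (without DFNB Shef3) with arrays left out. APOB turned to 0.23 with the mean of probe sets. With arrays or lines left out the difference ran from -2.58 to 1.20 for TTR, -0.71 to 0.13 for APOA1, -1.65 to 0.84 for APOA2, -1.12 to 0.21 for APOB, -3.72 to 0.0446 for APOC3, -0.22 to 0.30 for APOE and -2.68 to 0.57 for FGB. Between cell lines 2 members were called with the floor (AFP and APOA1), 3 over genes with a mean of at least 4 and 6 with array weights, and 0 to 1 without single arrays. The share of all genes called between lines was not counted in these settings. These counts therefore cannot be read as more or fewer than over all genes. Values below 4 enter the changes of TTR, ALB, APOA2, APOB, APOC3, FGB and SERPINA1.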
